A study of Mus musculus with 8 samples.

Results

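Cytochrome P450 enzymes are the genes described here: every protein-coding gene of the deposited table whose symbol begins with Cyp and a digit. The rule found 100 of them among 22046 protein-coding genes and 54532 genes in all, in 17 families, the family being the number after Cyp. The samples were brown adipose tissue from 4 mice labelled TG (CLCF1-ATG), transgenic for the interleukin-6 type cytokine CLCF1, and from 4 WT mice. The labels name no promoter, strain, age, sex or treatment and do not spell out ATG, and which cells express the transgene was not given in the sources used here. Levels are FPKM, fragments per kilobase of gene and per a library divisor set by the authors. The fragments behind these values could be recovered and are called reads here: 18494022 to 20183840 per TG library and 13734231 to 15751302 per WT library.

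P450 enzymes hold a haem group and use electrons from NADPH to insert oxygen into their substrates. Most sit in the endoplasmic reticulum and take electrons from P450 oxidoreductase (Por) or cytochrome b5 (Cyb5a), while a few, such as Cyp27a1, sit in mitochondria and are served by ferredoxin (Fdx1) and its reductase (Fdxr). Families 1 to 3 are best known for foreign compounds, family 4 for fatty acids and eicosanoids, and the higher families for sterols, steroid hormones, bile acids, vitamin D and retinoic acid. Most P450 genes are read mainly in liver, lung, kidney or steroid-making glands, and fat expresses a small subset.

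Clcf1 followed the labels, with 84.5 ± 4.75 FPKM in TG and 2.15 ± 1.28 FPKM in WT (SD, n = 4 each). The libraries differed in other ways that the genotype labels alone do not describe. Reads on the mitochondrial chromosome were 6.09% to 7.34% of TG libraries and 24.1% to 37.5% of WT libraries. Of 10 brown adipocyte markers 7 were lower and 1 higher in TG, and of 10 markers of adipocytes in general 7 were higher and 0 lower. The summed levels of the general markers were 28052 to 41705 FPKM in TG and 10677 to 12267 FPKM in WT. Endothelial markers were lower in TG for 7 of 8 genes, with summed levels of 26.6 to 45.3 FPKM in TG and 133 to 306 FPKM in WT, and fibroblast markers were higher for 4 and lower for 3 of 12. Skeletal muscle markers had their highest sums in TG mouse 5 (1471 FPKM) and WT mouse 2 (2602 FPKM), against 11.6 to 241 FPKM in the other 6 libraries. In whole tissue, fewer cells of a type and less RNA per cell cannot be told apart, and the part of cell makeup in the results below was not tested.

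Of the 100 P450 genes, 21 had 0.5 FPKM or more in 4 or more libraries, and these entered the test, made with limma on log2(FPKM + 1), with Benjamini-Hochberg adjustment over all 12508 tested genes and a threshold of 0.05. Of these 21, 6 were higher in TG, 7 were lower and 8 did not pass, so 61.9% were called, beside 44.1% of all tested genes. Genes called higher made up 22.3% of all tested genes and genes called lower 21.8%. The counts of each family and gene list below stand beside these shares. The median log2 change (TG minus WT) was -0.10 over the 21 and 0.01 over all tested genes. Cyp2b10 passed the filter through WT alone, so its difference was in part set by that filter. The FPKM values contain a scaling beyond library totals, and dividing by all recovered reads in place of it moved the median of all tested genes to 0.32 and the P450 calls to 9 higher and 6 lower. Under that division 44.3% of all tested genes were called higher and 11.5% lower, and the counts it gives for each gene list below stand beside those shares. All recovered reads include those on the mitochondrial chromosome, a larger share of WT than of TG libraries. Dividing by reads outside that chromosome, chosen after seeing the data, gave a median of 0.03 over all tested genes. Of these, 2926 were then called higher and 2638 lower, with 6 P450 genes higher and 7 lower. Leaving out TG mouse 5 and WT mouse 2 together, a choice made after seeing the data, left 3 higher (Cyp2f2, Cyp1b1 and Cyp20a1) and 7 lower.

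The remaining 79 genes were too low to test. No read was found in any of the 8 libraries for 41 of them, although a count of 0 allows up to 3 reads. The TG libraries held more reads than the WT libraries, and as raw counts the other 38 genes shared 428 reads in TG and 270 in WT. The highest of these was Cyp26b1, which clears retinoic acid, at 0.793 FPKM or less in every library. All 6 genes of steroid hormone synthesis, all 9 members of family 3 and all 15 of subfamily 2c were among the untested. Chosen after their values were seen, Cyp4f39 had 26 reads in TG and 0 in WT, Cyp4f14 had 23 reads in TG and 2 in WT, Cyp2c23 had 23 reads in TG and 2 in WT, and Cyp2ab1 had 22 reads in TG and 3 in WT. Other untested genes leaned to WT, among them Cyp46a1 (2 reads in TG and 11 in WT), Cyp4a32 (2 and 8) and Cyp2a22 (0 and 7).

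Cyp2f2 took a larger share of the summed P450 level in TG than in WT. Over all 100 genes the summed FPKM was 533, 816, 867 and 765 in TG mice 1, 2, 3 and 5, and 246, 175, 194 and 258 in WT mice 1, 2, 3 and 5. Cyp2f2 alone made up 53.0% ± 10.04 of that sum in TG and 2.68% ± 1.29 in WT (SD, n = 4 each). Cyp2e1 made up 35.6% ± 13.1 in TG and 40.8% ± 5.92 in WT, with TG mouse 1 at 16.1% and the other TG mice at 40.9% to 44.5%. Together the pair held 88.7% ± 3.17 in TG and 43.5% ± 5.59 in WT. The 98 other genes summed to 80.8 ± 4.22 FPKM in TG and 122 ± 11.01 FPKM in WT, so the direction of the total and that of its remainder were opposite. These sums are descriptions and were not tested.

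**Figure D1:**
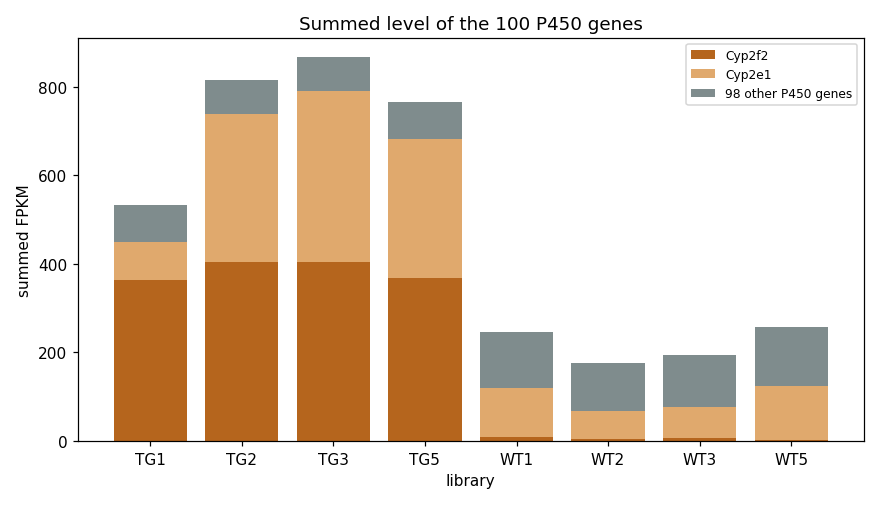
Summed FPKM of the 100 P450 genes in each library, with TG mice left and WT mice right and the sum split into Cyp2f2, Cyp2e1 and the 98 other genes. The 4 TG bars stand between 533 and 867 FPKM and the 4 WT bars between 175 and 258 FPKM.

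The promoter sequences below show the P450 pair of one chromosome 7 run that moved in opposite directions, and those of the 16 tested P450 genes with a window in RefSeq that held the letters of a STAT site, the class of factor that CLCF1 receptors activate. Each window runs from 250 bases before to 50 bases after the start site in RefSeq (GRCm38.p6), 5′ to 3′ on the gene's strand, with capitals marking matches to the motifs searched. The searched letters were GCGTG (core of the aryl hydrocarbon receptor site), TTCNNNGAA (STAT), TTGCNNAA (C/EBP), a PPAR direct repeat and TCACNCCAC (a sterol element), on both strands.
Cyp2f2 (chr7:27119705-27120004, plus strand): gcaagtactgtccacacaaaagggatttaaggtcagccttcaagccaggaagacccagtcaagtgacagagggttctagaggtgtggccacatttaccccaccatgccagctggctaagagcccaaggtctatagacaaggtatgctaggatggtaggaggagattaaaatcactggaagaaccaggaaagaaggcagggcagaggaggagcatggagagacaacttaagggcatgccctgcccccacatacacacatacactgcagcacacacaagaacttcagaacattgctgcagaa
Cyp2b10 (chr7:25897408-25897707, plus strand): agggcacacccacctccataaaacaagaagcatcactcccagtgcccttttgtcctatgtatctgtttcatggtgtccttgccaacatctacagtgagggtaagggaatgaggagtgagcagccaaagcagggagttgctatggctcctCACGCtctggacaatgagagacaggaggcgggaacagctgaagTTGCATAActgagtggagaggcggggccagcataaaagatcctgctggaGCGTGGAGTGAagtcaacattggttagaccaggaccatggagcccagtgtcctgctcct
Cyp4b1 (chr4:115647672-115647971, minus strand): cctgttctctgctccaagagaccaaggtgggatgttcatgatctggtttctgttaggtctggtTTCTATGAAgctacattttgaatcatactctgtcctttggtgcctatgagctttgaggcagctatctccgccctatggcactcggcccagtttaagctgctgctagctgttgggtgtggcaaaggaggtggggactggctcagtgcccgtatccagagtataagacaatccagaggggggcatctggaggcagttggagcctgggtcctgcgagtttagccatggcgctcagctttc
Cyp4f13 (chr17:32947312-32947611, minus strand): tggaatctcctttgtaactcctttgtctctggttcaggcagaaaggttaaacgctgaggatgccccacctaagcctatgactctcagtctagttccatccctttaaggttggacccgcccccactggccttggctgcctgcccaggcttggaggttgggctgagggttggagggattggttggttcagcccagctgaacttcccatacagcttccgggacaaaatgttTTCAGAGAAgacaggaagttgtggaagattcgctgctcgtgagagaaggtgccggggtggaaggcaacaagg

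The Cyp2f2 window held none of the 5 motifs. The Cyp2b10 window held GCGTG at 2 places, TTGCNNAA once and TCACNCCAC once, the last on the opposite strand and overlapping a GCGTG. The STAT letters lay 187 bases before the start of Cyp4b1 and 22 bases before the start of Cyp4f13. RefSeq gave a window for 16 of the 21 tested genes. The STAT letters were in 2 of these 16 windows (12.5%), beside 8.30% of all 32851 promoter windows, and GCGTG was in 9 of 16 (56.3%) beside 32.4% of all. TTGCNNAA was in 3 of 16 (18.8%) beside 10.8%, TCACNCCAC in 1 of 16 beside 1.24%, and the PPAR direct repeat in 0 of 16 beside 0.0396%. Over the 87 windows of P450 genes, tested or not, the shares were 5.75% for the STAT letters and 20.7% for GCGTG. There TTGCNNAA was in 24.1%, TCACNCCAC in 3.45% and the PPAR direct repeat in 0%. A match is a stretch of letters, not a shown binding site.

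Among families 1 to 3, the foreign compound type, 9 of 60 genes were tested (leaving the vitamin D gene Cyp2r1 aside), with 4 higher in TG, 3 lower and 2 not passing. Of all tested genes 22.3% were higher and 21.8% lower. Cyp2f2 (ENSMUSG00000052974, chromosome 7, 27119909 to 27133660), which oxidises naphthalene in mouse lung and liver, had 362, 403, 405 and 368 FPKM in TG mice 1, 2, 3 and 5, against 9.72, 4.44, 6.39 and 2.46 FPKM in WT mice 1, 2, 3 and 5. All TG libraries were far above all WT libraries. The means were 384 ± 22.5 FPKM in TG and 5.75 ± 3.10 FPKM in WT (SD, n = 4 each), a 66.8-fold ratio, and the log2 change was 5.95 (SE 0.288, limma adjusted p = 1.29e-06). Markers of the lung cells known for Cyp2f2 were near absent. Of 10 club and alveolar markers none was tested, and their summed level was 0.0306 to 0.496 FPKM in TG and 0.177 to 1.79 FPKM in WT. Scgb3a2, Sftpb, Sftpc, Bpifa1 and Nkx2-1 were at 0 in all 8 libraries. Hepatocyte markers summed to 0.896 to 2.19 FPKM in TG and 1.83 to 4.72 FPKM in WT, with Cps1 at 0 in all libraries. Of these 10 markers 2 were tested, 1 higher and 1 lower in TG. Which cells gave the Cyp2f2 reads was not tested.

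Cyp2e1 (ENSMUSG00000025479, chromosome 7, 140763739 to 140774987), which oxidises ethanol and acetone, had 86.0, 335, 385 and 313 FPKM in TG mice 1, 2, 3 and 5, against 109.6, 62.0, 70.0 and 122 FPKM in WT mice 1, 2, 3 and 5. TG mouse 1 lay within the WT range, and the other 3 TG libraries were above every WT library. The log2 change was 1.47 (SE 0.447, limma adjusted p = 0.0240), and without TG mouse 1 it was 1.96 (adjusted p = 0.000483). The call was lost without TG mouse 2 (adjusted p = 0.0666), TG mouse 3 (0.0673), TG mouse 5 (0.0616), WT mouse 2 (0.0623) or WT mouse 3 (0.0588), without TG mouse 5 and WT mouse 2 together (0.127) and with no filter on low values (0.0749). Cyp2f2 in TG mouse 1 stood at 362 FPKM, near the 368 to 405 FPKM of the other TG mice.

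Cyp1b1 and Cyp1a1, both classic targets of the aryl hydrocarbon receptor, did not have the same outcome. Cyp1b1 (ENSMUSG00000024087, chromosome 17, 79706953 to 79715041), which hydroxylates oestrogens and polycyclic hydrocarbons, had 6.33, 5.32, 4.77 and 6.34 FPKM in TG mice 1, 2, 3 and 5, against 2.70, 2.42, 1.51 and 1.60 FPKM in WT mice 1, 2, 3 and 5. The groups did not overlap, and the log2 change was 1.14 (SE 0.155, limma adjusted p = 0.000329). Cyp1a1 averaged 1.48 ± 0.479 FPKM in TG and 3.71 ± 3.20 FPKM in WT (SD, n = 4 each), with WT mouse 5 at 8.18 FPKM and the other WT libraries at 1.21 to 3.87 FPKM. The change of -0.71 on the log2 scale did not pass (adjusted p = 0.179). Ahr, the receptor gene, stood at 2.65 ± 0.957 FPKM in TG and 2.86 ± 0.735 FPKM in WT (adjusted p = 0.709), while its partner Arnt, chosen once its level was known, had 6.32 ± 0.190 FPKM in TG and 4.18 ± 0.304 FPKM in WT, and passed (log2 change 0.50).

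Cyp2b10, Cyp2d22 and Cyp2u1 fell. Cyp2b10 (ENSMUSG00000030483, chromosome 7, 25897620 to 25926624), the phenobarbital-inducible target of the receptor CAR, had 0.0794, 0, 0.124 and 0 FPKM in TG mice 1, 2, 3 and 5, against 6.99, 5.60, 3.31 and 4.96 FPKM in WT mice 1, 2, 3 and 5. That is 10 reads in TG and 546 reads in WT, a TG to WT ratio of 0.0101 on the authors' scaling. The 95% exact Clopper-Pearson interval of this ratio was 0.00481 to 0.0187. It pools the reads of each group, so it holds counting error only and not variation among mice. On the log2(FPKM + 1) scale, which understates so low a level, Cyp2b10 fell by 2.53 (SE 0.175, limma adjusted p = 6.81e-06). Its log2 changes were -6.73 to -2.36 over the alternatives. As the gene passed the filter through WT alone, its difference was in part set by that filter. Nr1i3, which encodes CAR, was at 0 in all TG libraries and averaged 0.0126 ± 0.0253 FPKM in WT.

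Cyp2d22 (ENSMUSG00000061740, chromosome 15, 82370527 to 82380260), of the subfamily that holds human CYP2D6, had 2.70, 3.20, 2.03 and 2.43 FPKM in TG mice 1, 2, 3 and 5, against 13.9, 9.36, 8.005 and 13.1 FPKM in WT mice 1, 2, 3 and 5. The groups did not overlap, and on the log2 scale it fell by 1.73 (SE 0.1797, limma adjusted p = 6.71e-05). Cyp2u1 (ENSMUSG00000027983, chromosome 3, 131288441 to 131303227), whose human counterpart hydroxylates long-chain fatty acids, had 1.05, 1.504, 1.04 and 1.12 FPKM in TG mice 1, 2, 3 and 5, against 4.66, 6.51, 4.88 and 4.22 FPKM in WT mice 1, 2, 3 and 5. Its groups did not overlap either, and on the log2 scale it fell by 1.47 (SE 0.136, limma adjusted p = 3.24e-05).

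The subfamily 2j holds enzymes that oxidise arachidonic acid, and 2 of its 8 genes were tested. Cyp2j9 (ENSMUSG00000015224, chromosome 4, 96568429 to 96591578) had 1.56, 1.98, 1.95 and 1.67 FPKM in TG mice 1, 2, 3 and 5, against 1.27, 0.891, 1.22 and 0.811 FPKM in WT mice 1, 2, 3 and 5. The groups did not overlap, and the log2 change was 0.45 (SE 0.117, limma adjusted p = 0.0113), a call lost without TG mouse 5 and WT mouse 2 together (0.0614). Its neighbour Cyp2j6 had 6.54, 6.99, 9.85 and 7.04 FPKM in TG mice 1, 2, 3 and 5, against 9.44, 6.68, 9.03 and 7.75 FPKM in WT mice 1, 2, 3 and 5. These groups overlapped and the difference did not pass (log2 change -0.11, adjusted p = 0.590).

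**Figure D2:**
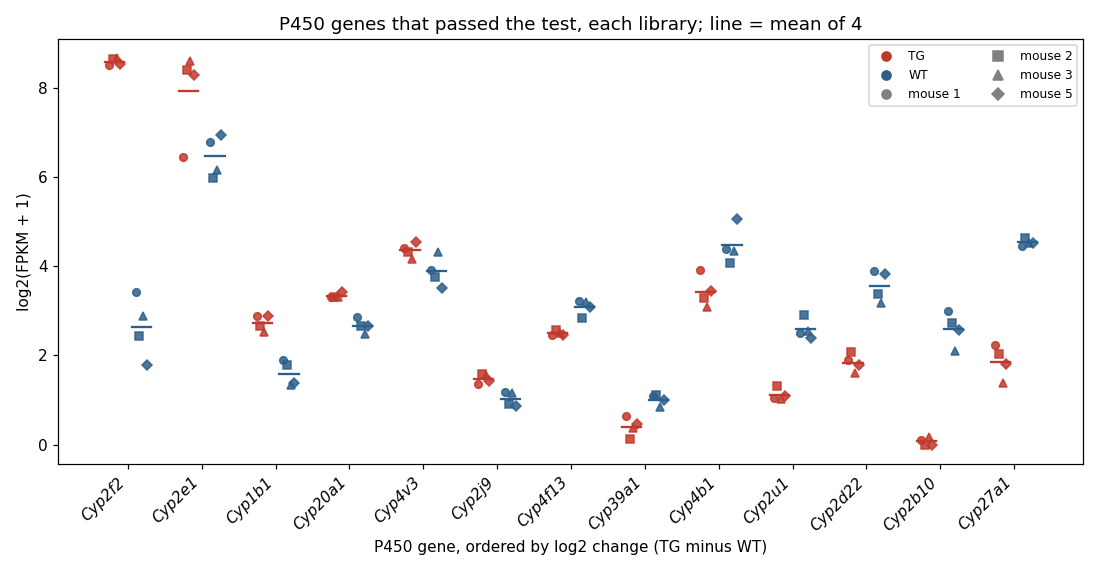
Level of the 13 P450 genes that passed the test, as log2(FPKM + 1), in each TG (red, left) and WT (blue, right) library, with a symbol per mouse number and a line at the mean of 4 libraries. Groups are apart for Cyp2f2 and Cyp27a1 at either end, and TG mouse 1 lies among the WT libraries for Cyp2e1.

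On chromosome 7, Cyp2b10 and Cyp2f2 belong to a run of 13 P450 genes over 1356 kb (25802475 to 27158668), joined where neighbours lay within 1000000 bases. Its 2 tested genes had opposite outcomes, with Cyp2b10 at 0.0509 ± 0.0616 FPKM in TG and 5.22 ± 1.53 FPKM in WT, and Cyp2f2, on the same strand further along the run, high in TG as given above. The 11 other genes of the run, which belong to subfamilies 2a, 2b, 2g, 2s and 2t, had at most 9 reads each in the 4 TG libraries and at most 7 in the 4 WT libraries. Cyp2t4, the next P450 gene after Cyp2f2 with its start 33.8 kb beyond that of Cyp2f2, had 8 reads in TG and 1 in WT. Egln2, a prolyl hydroxylase gene at the end of the run, averaged 22.2 ± 1.79 FPKM in TG and 25.8 ± 1.80 FPKM in WT and did not pass (adjusted p = 0.119).

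**Figure D3:**
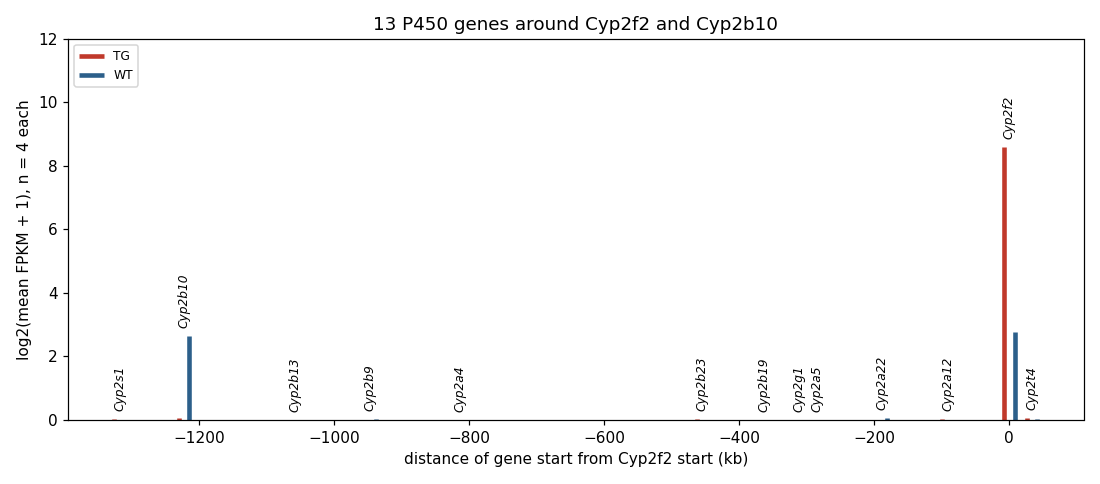
Mean level, as log2(mean FPKM + 1) over 4 libraries a group, of the 13 P450 genes of the chromosome 7 run against the distance of each gene's start from that of Cyp2f2 in kb, with TG in red and WT in blue. Only Cyp2b10 (WT) and Cyp2f2 (both groups) rise visibly from the baseline.

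Family 4, the fatty acid hydroxylase type, had 6 of 20 genes tested, with 1 higher in TG, 2 lower and 3 not passing. Cyp4b1 (ENSMUSG00000028713, chromosome 4, 115624725 to 115647723), which acts on fatty acids and some plant toxins, had 14.1, 8.71, 7.43 and 9.92 FPKM in TG mice 1, 2, 3 and 5, against 20.1, 15.7, 19.4 and 32.4 FPKM in WT mice 1, 2, 3 and 5. All TG libraries were below all WT libraries, and on the log2 scale the gene fell by 1.04 (SE 0.233, limma adjusted p = 0.00565). Cyp4f13 (ENSMUSG00000024055, chromosome 17, 32924688 to 32947402) had 4.497, 4.92, 4.64 and 4.51 FPKM in TG mice 1, 2, 3 and 5, against 8.39, 6.21, 8.22 and 7.42 FPKM in WT mice 1, 2, 3 and 5. Its groups did not overlap (log2 change -0.59, SE 0.109, limma adjusted p = 0.00191), but dividing by all recovered reads ended the call (-0.23 on the log2 scale, adjusted p = 0.0774), as did voom on those reads (0.105).

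Cyp4v3 (ENSMUSG00000079057, chromosome 8, 45304944 to 45333216), an omega-hydroxylase of fatty acids, was the most abundant tested gene of its family in TG, with 20.2, 18.8, 16.95 and 22.2 FPKM in TG mice 1, 2, 3 and 5, against 14.2, 12.6, 19.1 and 10.4 FPKM in WT mice 1, 2, 3 and 5. WT mouse 3 reached into the TG range. The log2 change was 0.47 (SE 0.168, limma adjusted p = 0.0454). The call was lost when any library but WT mouse 3 was left out (adjusted p from 0.0507 to 0.116), without TG mouse 5 and WT mouse 2 together (0.213), with the replicate number as a block (0.0936) and with no filter (0.0993).

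Cyp4f16, Cyp4f17 and Cyp4f18 did not pass. Cyp4f16 averaged 3.14 ± 0.354 FPKM in TG and 2.38 ± 0.326 FPKM in WT (SD, n = 4 each, adjusted p = 0.0584). It was called higher under 4 alternatives: dividing by all recovered reads (0.61 on the log2 scale, adjusted p = 0.00197), voom (0.00375), the rescaling that leaves out abundant genes (0.00407) and leaving out WT mouse 5 (0.0338). Cyp4f17 averaged 1.27 ± 0.452 FPKM in TG and 1.41 ± 0.393 FPKM in WT. Cyp4f18, which in mice hydroxylates leukotriene B4 in neutrophils, averaged 1.28 ± 0.467 FPKM in TG and 1.80 ± 1.45 FPKM in WT (adjusted p = 0.661). WT mouse 3 had the highest Cyp4f18 level, 3.85 FPKM, and the highest sum of 10 neutrophil markers, 373 FPKM. TG mouse 5 had the lowest Cyp4f18 level, 0.588 FPKM, with a neutrophil marker sum of 237 FPKM. Those sums were 191 to 267 FPKM in TG and 16.3 to 373 FPKM in WT. Of the 10 markers 3 were tested (1 higher and 2 lower) and none was at 0 in every library. Their part in the Cyp4f18 level was not tested.

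Sequence copies bear on the 4f subfamily. The Cyp4f16 transcript shared 96.1% of bases with Cyp4f37 over 71.6% of its length, Cyp4f17 shared 91.4% with Cyp4f16 over 25.3%, and Cyp4f13 shared 89.7% with Cyp4f16 over 33.9% (blastn against GENCODE M21). Cyp4f37 was at 0 in all libraries. Reads of Cyp4f16, Cyp4f17 and Cyp4f13 are therefore uncertain as to gene, since the treatment of reads with several matches was not given in the sources used here. No other tested P450 gene had a copy above 90% identity over at least 25% of its transcript, and Cyp2f2, Cyp2e1, Cyp27a1, Cyp1b1 and Cyp4b1 had none that covered this length.

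Of the bile acid and oxysterol enzymes 3 of 6 were tested, with 0 higher in TG, 2 lower and 1 not passing. Cyp27a1 (ENSMUSG00000026170, chromosome 1, 74713574 to 74737892), the mitochondrial sterol hydroxylase of the bile acid pathway, had 3.67, 3.09, 1.59 and 2.51 FPKM in TG mice 1, 2, 3 and 5, against 21.02, 23.7, 21.9 and 22.1 FPKM in WT mice 1, 2, 3 and 5. Every TG library was below every WT library, and the mean of WT was 8.18 times that of TG. The log2 change was -2.67 (SE 0.168, limma adjusted p = 4.36e-06), and it was -3.04 to -2.31 over all alternatives. Cyp27a1 is also read in macrophages, whose 10 markers were higher in TG for 5 and lower for 0. They summed to 385 to 470 FPKM in TG and 226 to 379 FPKM in WT, with none at 0. Of all tested genes 22.3% were called higher and 21.8% lower. The part of macrophages in the Cyp27a1 level was not tested.

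Cyp39a1 and Cyp7b1, which hydroxylate oxysterols, were both low. Cyp39a1 (ENSMUSG00000023963, chromosome 17, 43667425 to 43751431) had 0.563, 0.0928, 0.287 and 0.386 FPKM in TG mice 1, 2, 3 and 5, against 1.14, 1.14, 0.788 and 1.00 FPKM in WT mice 1, 2, 3 and 5. The groups did not overlap and the log2 change was -0.61 (SE 0.132, limma adjusted p = 0.00474), from 94 reads in TG and 155 in WT. Cyp39a1 reached 0.5 FPKM in 1 TG library and in 4 WT libraries, and it was too low to test under the filter of 1 FPKM. Cyp7b1 averaged 0.644 ± 0.373 FPKM in TG and 0.168 ± 0.236 FPKM in WT (SD, n = 4 each) and did not pass (log2 change 0.48, adjusted p = 0.0835). It was called higher without TG mouse 2 (adjusted p = 0.0118), without WT mouse 3 (0.0371), with division by all recovered reads (0.0341) and with the rescaling that leaves out abundant genes (0.0382). In these 2 libraries Cyp7b1 stood at 0.0872 FPKM (TG mouse 2) and 0.521 FPKM (WT mouse 3), while the other TG libraries had 0.775 to 0.866 FPKM and the other WT libraries 0.0343 to 0.0784 FPKM.

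Cyp51, the lanosterol demethylase of cholesterol synthesis, had 4.53, 3.89, 7.06 and 7.27 FPKM in TG mice 1, 2, 3 and 5, against 6.31, 4.83, 5.59 and 5.78 FPKM in WT mice 1, 2, 3 and 5. The groups overlapped and no difference passed (log2 change -0.02, SE 0.181, adjusted p = 0.942). Cyp2r1, which starts the activation of vitamin D, averaged 0.618 ± 0.252 FPKM in TG and 0.334 ± 0.218 FPKM in WT (adjusted p = 0.188, with 117 reads in TG and 34 in WT), and of the alternatives only dividing by all recovered reads called it higher (0.0430). Cyp20a1 (ENSMUSG00000049439, chromosome 1, 60343323 to 60388060), a P450 with no settled substrate, had 8.94, 8.90, 8.86 and 9.64 FPKM in TG mice 1, 2, 3 and 5, against 6.24, 5.33, 4.54 and 5.35 FPKM in WT mice 1, 2, 3 and 5. Its groups did not overlap (log2 change 0.67, SE 0.105, limma adjusted p = 0.000762), and it remained called under every alternative run.

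Over the 21 tested genes, 11 had groups that did not overlap, beside 42.6% of all tested genes. The genes called in either direction came from families 1, 2, 4, 20, 27 and 39, and families 2 and 4 held genes of both directions. Differences in direction between members of a family were not tested as such.

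**Figure D4:**
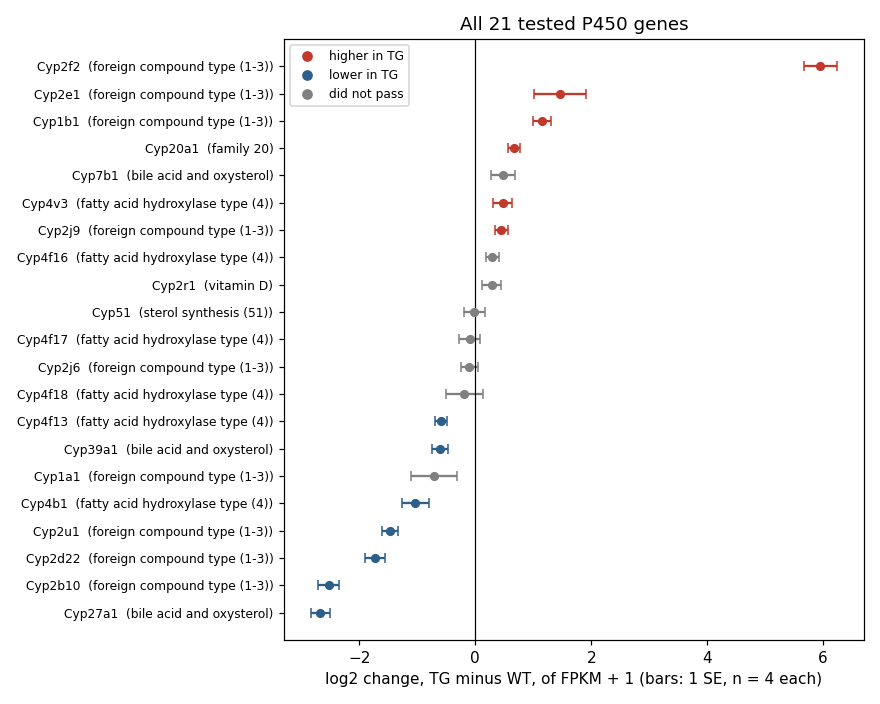
Log2 change (TG minus WT, of FPKM + 1) of the 21 tested P450 genes with bars of 1 SE (n = 4 each), red for higher, blue for lower and grey for genes that did not pass, with the role group in brackets. The changes run from -2.67 for Cyp27a1 to 5.95 for Cyp2f2.

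The genes that feed electrons to P450 enzymes held calls of both directions. Por had 133, 144, 117 and 106 FPKM in TG mice 1, 2, 3 and 5, against 86.4, 91.6, 109 and 84.1 FPKM in WT mice 1, 2, 3 and 5, with WT mouse 3 above TG mouse 5. Its log2 change was 0.43 (SE 0.132, limma adjusted p = 0.0258), a call lost without TG mouse 1, TG mouse 2, WT mouse 1, WT mouse 2 or WT mouse 5 or without TG mouse 5 and WT mouse 2 together (adjusted p up to 0.0816). Cyb5a and Pgrmc2, a haem-binding partner of P450 enzymes, rose by log2 changes of 0.69 and 0.61, Cyb5a losing its call without TG mouse 5 and WT mouse 2 together (0.0572).

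Fdx1 had 23.0, 27.5, 31.8 and 28.8 FPKM in TG mice 1, 2, 3 and 5, against 47.3, 47.4, 62.5 and 38.7 FPKM in WT mice 1, 2, 3 and 5, with no overlap. It fell by 0.79 on the log2 scale (limma adjusted p = 0.00291), and Fdxr, at 4.32 ± 0.763 FPKM in TG and 7.78 ± 1.28 FPKM in WT (SD, n = 4 each), fell by 0.72 (adjusted p = 0.00290). Cyb5r1, a cytochrome b5 reductase gene named here to complete the lower calls, fell by 0.41 (adjusted p = 0.0361). Its call was lost without TG mouse 2, TG mouse 3, TG mouse 5, WT mouse 1 or WT mouse 2 and under several other settings (adjusted p up to 0.785). The Fdx1 and Fdxr calls were lost with division by all recovered reads and with voom (adjusted p up to 0.0741 for Fdx1 and 0.0597 for Fdxr). Over the list, 4 of 9 tested partners were higher, 3 lower and 2 did not pass (median log2 change 0.06), whereas with division by all recovered reads 6 were higher and 0 lower.

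In haem synthesis and breakdown 2 of 13 genes were higher in TG, 6 lower and 5 did not pass (median log2 change 0.01), and with division by all recovered reads 7 were higher and 2 lower. Alas1, the rate-limiting enzyme of haem synthesis outside red cells, had 42.4, 48.6, 51.6 and 33.9 FPKM in TG mice 1, 2, 3 and 5, against 20.1, 26.03, 30.1 and 23.1 FPKM in WT mice 1, 2, 3 and 5, and rose by 0.80 on the log2 scale (SE 0.162, limma adjusted p = 0.00320). Alas2, its red cell form, fell by 1.73, and 5 of 7 erythroid markers, Alas2 among them, were lower in TG. Their summed levels were 1530 to 1902 FPKM in TG and 5111 to 12893 FPKM in WT. Cpox, an enzyme of the later steps, rose by 0.37 and Hmox1, which breaks haem down, fell by 1.51. The Cpox call was lost without TG mouse 1, TG mouse 2, WT mouse 1 or WT mouse 2 among other settings (adjusted p up to 0.0884). That of Hmox1 was lost without TG mouse 2, TG mouse 3, WT mouse 1 or WT mouse 3 and with each rescaling of the libraries but division by reads outside the mitochondrial chromosome (up to 0.0877).

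Among the receptors and partner factors that control P450 genes, 7 of 15 tested were higher in TG, 3 lower and 5 did not pass (median log2 change 0.35). Over all tested genes 22.3% were higher and 21.8% lower. On division by all recovered reads, 9 of the list were higher and 3 lower. Rxra, the partner of many nuclear receptors, had 30.2, 29.7, 27.7 and 29.2 FPKM in TG mice 1, 2, 3 and 5, against 9.54, 10.2, 7.81 and 8.59 FPKM in WT mice 1, 2, 3 and 5, and rose by 1.59 (limma adjusted p = 4.81e-06). The retinoic acid receptor gene Rara rose by 0.68. Ppara, the fatty acid receptor that drives subfamily 4a in liver, averaged 1.67 ± 0.376 FPKM in TG and 6.65 ± 0.351 FPKM in WT (SD, n = 4 each) and fell by 1.53 on the log2 scale, and Rxrg fell by 0.98. Nr1i2, which encodes the receptor PXR, was at 0 in all 8 libraries, and none of the 8 members of subfamily 4a was tested.

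Conjugating enzymes, which act on P450 products, had 12 of 27 tested genes higher in TG, 3 lower and 12 not passing (median log2 change 0.25). Over all tested genes 22.3% were higher and 21.8% lower. On division by all recovered reads, 15 of the list were higher and 1 lower. Mgst2, a microsomal glutathione transferase, averaged 15.7 ± 2.85 FPKM in TG and 2.69 ± 0.619 FPKM in WT (SD, n = 4 each; log2 change 2.18, limma adjusted p = 8.93e-06), and the sulfotransferase gene Sult1a1 averaged 108 ± 2.50 FPKM in TG and 28.9 ± 8.73 FPKM in WT (1.91). Sult1e1, the oestrogen sulfotransferase, fell by 1.21 and Gstm5 by 0.58. The call of Gstm5 was lost without TG mouse 1 and under several other settings (adjusted p up to 0.446). Of the flavin monooxygenases and carbonyl reductases 3 of 13 were higher, 1 lower and 9 did not pass (median 0.26), with 6 higher and 1 lower on division by all recovered reads. Fmo5 rose by 0.74 and Akr1b3 by 0.50, and Fmo2 fell by 1.11.

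Retinoid handling had 6 of 11 tested genes higher, 1 lower and 4 not passing (median log2 change 0.45), beside 22.3% higher and 21.8% lower over all tested genes. On division by all recovered reads, 7 of the list were higher and 1 lower. Aldh1a2, which makes retinoic acid, averaged 4.90 ± 0.949 FPKM in TG and 0.451 ± 0.395 FPKM in WT (SD, n = 4 each; log2 change 2.05, limma adjusted p = 3.09e-05), while Cyp26a1, Cyp26b1 and Cyp26c1, which clear it, were too low to test. Dhrs9, at 0.377 ± 0.107 FPKM in TG and 1.70 ± 0.748 FPKM in WT, was called lower (log2 change -0.93), but like Cyp2b10 it passed the filter through WT alone. Aldh1a1 rose by 0.69, a call lost without TG mouse 1, TG mouse 5, WT mouse 1, WT mouse 3 or WT mouse 5 and under other settings (adjusted p up to 0.0921). In sterol synthesis around Cyp51, 6 of 17 were higher, 2 lower and 9 did not pass (median 0.26), with 10 higher and 1 lower on division by all recovered reads. Idi1 rose by 1.08 and Sc5d by 0.68, while Fdft1, which makes squalene, fell by 1.13.

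In steroid conversion 1 of 6 tested genes was higher, 2 lower and 3 did not pass (median log2 change 0.09), and 4 were higher and 0 lower on division by all recovered reads. Srd5a3 rose by 0.56, and Hsd11b1, which activates glucocorticoid, and Hsd17b10 fell by 0.97 and 0.67. The 2 lower calls were lost with that division among other settings, and for Hsd11b1 also without TG mouse 1 (adjusted p up to 0.0801 for Hsd11b1 and 0.191 for Hsd17b10). Outside the P450 enzymes, arachidonate release and oxidation had 4 of 10 higher, 3 lower and 3 not passing (median 0.14), with 5 higher and 2 lower on division by all recovered reads. Ltc4s, the leukotriene C4 synthase, rose by 0.91 and Hpgd, which inactivates prostaglandins, by 0.84, and Ptgds and Ptges2, prostaglandin synthases, fell by 2.33 and 1.20. Ptgds also passed the filter through WT alone, at 0.0898 ± 0.161 FPKM in TG and 5.23 ± 3.52 FPKM in WT. The P450-type synthases that carry no Cyp symbol were low. Ptgis, for prostacyclin, stood at 0.576 ± 0.249 FPKM in TG and 1.27 ± 1.16 FPKM in WT (adjusted p = 0.245). Tbxas1, for thromboxane, stood at 0.336 ± 0.0463 FPKM in TG and 0.242 ± 0.148 FPKM in WT, too low to test.

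**Figure D5:**
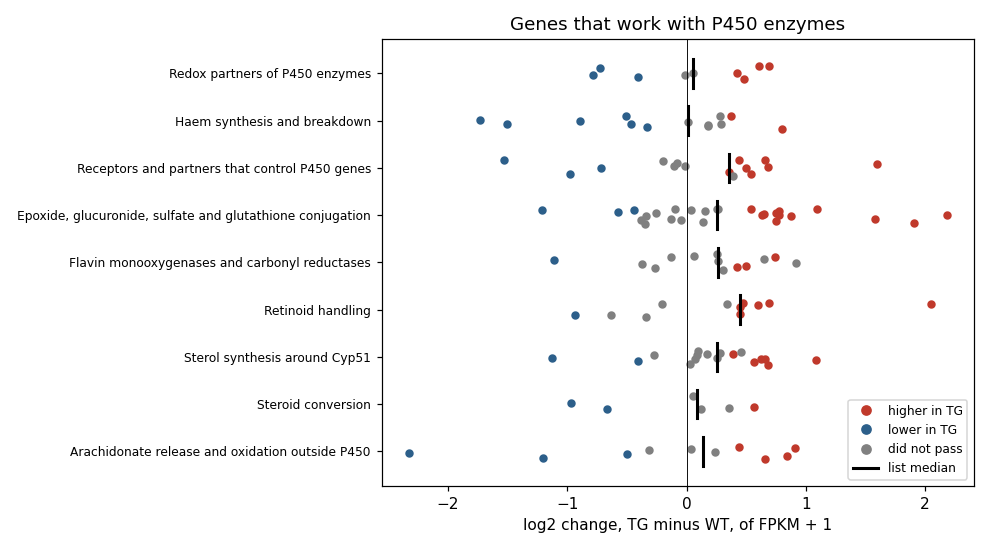
Log2 change (TG minus WT, of FPKM + 1) of each tested gene in 9 lists of genes that work with P450 enzymes, red for higher, blue for lower and grey for genes that did not pass, with a black bar at the list median. The medians lie between 0.01 and 0.45, and every list holds genes of both directions.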

How the data were processed

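Per the labels' protocols, RNA of frozen brown adipose tissue was taken up in TRIzol and made into libraries with an Illumina TruSeq RNA kit from total RNA. The submitters' processing notes name the build mm10, featureCounts 1.5.0-p3, HISAT2 2.0.5 and bcl2fastq. Settings, strandedness and annotation were not given in the sources used here. By gene span, some tested P450 genes overlapped genes of the opposite strand. These were Zfp961 with Cyp4f18, Akap9 with Cyp51, and the antisense genes Gm15883 with Cyp2f2 and 4930534D22Rik with Cyp2u1. Same-strand overlaps included 6030460B20Rik with Cyp20a1 and Gm45753 with Cyp4v3. Exons were not compared, and with strand unstated, reads at any bases shared by exons could not be separated. The authors deposited FPKM. Multiplied by length, these values are whole numbers of a fixed step in each library, from which reads were recovered. Reads were 0.822 to 0.883 times the implied divisor in TG and 1.02 to 1.22 times in WT.

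Columns were matched to mice 1, 2, 3 and 5 of each genotype by name. As each group had 4 mice, the p-values reflect variation among animals. limma 3.58.1 (R 4.3.3, eBayes with trend, two-sided) was fitted to log2(FPKM + 1) of genes at 0.5 FPKM or more in 4 or more libraries. It was also run on simulated reads with few changed genes and no group difference in mitochondrial share or scaling. That simulation does not show how limma performs on data like these. All tested P450 genes could be named; of each list the 2 highest and 2 lowest called genes, with Por, Fdx1, Fdxr, Ahr, Alas1, Tbxas1 and Ptgis. The members and lists were chosen with earlier results of these data known. Alternatives were a pseudocount of 0.1, no filter or 1 FPKM, quantile normalisation, a rescaling that leaves out mitochondrial and haemoglobin genes and the 20 top genes, division by recovered reads, voom on them, the replicate block and leaving out libraries. Copies were sought with blastn 2.17.0. Division by reads outside the mitochondrial chromosome, and leaving out TG mouse 5 and WT mouse 2 together, were chosen after seeing the data. Promoter windows came from RefSeq (GRCm38.p6), and protein sequences were not used here. One gene that the naming rule selects is not reported here.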

Additional observations from a re-analysis of the deposited data

Results flagged for a closer look

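Of 42 groups of 4 libraries (21 tested P450 genes in both genotypes), 6 held a library set far apart from the other 3. The cutoff would flag about 1 in 20 groups of independent, normally spread values. As the genes share the same libraries and some hold few reads, the count of 6 cannot be set against that rate. Cyp20a1 had 9.64 FPKM in TG mouse 5, against 8.86 to 8.94 FPKM in the other TG mice. Cyp2j6 had 9.85 FPKM in TG mouse 3, against 6.54 to 7.04 FPKM. Cyp2u1 had 1.504 FPKM in TG mouse 2, against 1.04 to 1.12 FPKM. Cyp4f18 had 0.588 FPKM in TG mouse 5, against 1.48 to 1.58 FPKM. Cyp7b1 had 0.0872 FPKM in TG mouse 2, against 0.775 to 0.866 FPKM in the other TG mice, and 0.521 FPKM in WT mouse 3, against 0.0343 to 0.0784 FPKM in the other WT mice.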

How the results depend on the processing

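The count of P450 genes called lower was 6 or 7 under every alternative, and that of genes called higher 4 to 9, except that leaving out TG mouse 5 and WT mouse 2 together gave 3. Leaving out single libraries gave 4 to 6 higher and 7 lower. With the replicate number as a block, 5 were higher and 7 lower. Libraries with the same number did not deviate together (correlations of -0.24 to 0.04 over tested genes). Deviations from means of 4 libraries cannot decide whether the numbers pair mice across genotypes, and the labels do not say. Of the 8 tested P450 genes that did not pass, 4 changed sign under some alternative, and Cyp1a1, Cyp4f16, Cyp2r1 and Cyp7b1 kept one sign under all that were run. Cyp2j6 had log2 changes of 0.23, 0.28 and 0.31 with the rescaling without abundant genes, division by all recovered reads and voom. In the same order Cyp51 had 0.30, 0.34 and 0.40, Cyp4f18 0.028, 0.057 and 0.15, and Cyp4f17 0.11, 0.14 and 0.21. Cyp51 also had 0.0027 with division by reads outside the mitochondrial chromosome and -0.19 to 0.12 when libraries were left out (above 0 without TG mouse 1, TG mouse 2 or WT mouse 1). Left-out libraries gave Cyp4f18 -0.41 to 0.12 (above 0 without WT mouse 3) and Cyp4f17 -0.18 to 0.054 (above 0 without TG mouse 3). The cause of these sign changes was not tested. Depth limits the low genes, such as Cyp2r1 (117 reads in TG and 34 in WT) and Cyp39a1 (94 reads in TG and 155 in WT).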
